A study of Hordeum vulgare with 12 samples.

Results

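Of the 7 genes described here, 6 are annotated as high affinity nitrate transporters of barley (*Hordeum vulgare*) and 1 as nitrate reductase. They are the barley genes with these annotations that the study listed as lower in *hvatr.g* than in WT plants under mock conditions, so they were chosen by the counts of the mock-treated libraries. Their mock difference between the genotypes is therefore given as a description without a test. The count table holds 81687 genes in 83990 rows, and each of the 7 genes has 1 row. RNA came from dissected root apices of 7-day-old plants grown from excised embryos on MS medium, which contains nitrate and ammonium, and then kept for 6 h in liquid medium. The 4 groups were *hvatr.g* under zeocin (500 μg/ml), WT under zeocin (500 μg/ml), *hvatr.g* under mock treatment (0 μg/ml) and WT under mock treatment (0 μg/ml), with 3 libraries in each. WT was *cv.* Sebastian, and *hvatr.g* is a TILLING allele of the DNA damage kinase gene *ATR* in the Sebastian background, so a single mutant line stands for the loss of *ATR*. Zeocin is a bleomycin-type antibiotic that breaks DNA strands.

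Plant roots take up nitrate through proton-coupled transporters. High affinity transporters of the NRT2 family work at low external nitrate, in most cases together with a small partner protein (NAR2, also called NRT3), and members of the large NRT1/PTR family move nitrate, peptides and other small molecules. Inside the cell nitrate reductase reduces nitrate to nitrite, and nitrite reductase in the plastid reduces nitrite to ammonium, which enters amino acids. In Arabidopsis and cereals, nitrate itself raises the transcripts of many NRT2, nitrate reductase and nitrite reductase genes.

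Total counts ran from 36100439 to 74699245 per library, and within a group the log2 CPM of libraries correlated at 0.966 to 0.989 across genes. CPM is counts scaled to library size with TMM factors, and values are the mean ± SD of 3 libraries. The *ATR* transcript was present at 13.1 to 20.5 CPM in *hvatr.g* and at 9.68 to 15.4 CPM in WT, and since the allele comes from TILLING, a method that induces point mutations, this level checks no label. On the third principal component the WT libraries numbered 3 of both treatments stood apart from the other WT libraries, so the main counts were also computed without the libraries numbered 3. Calls required a log2 fold change of 1 or more, up or down, together with adjusted p values under 0.05. The p came from the quasi-likelihood test of edgeR and was adjusted by the method of Benjamini and Hochberg over all 26039 tested genes. An exact permutation test of 3 libraries against 3 cannot go below p = 0.1, and the adjusted p given for a gene is that of the edgeR model. These p-values set the difference between groups against the spread between libraries of the same group. That spread was estimated over all 12 libraries, so it includes the mock-treated libraries that chose the genes. In bulk root apices, fewer cells of a type and less RNA per cell cannot be told apart.

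Under zeocin, all 7 genes were lower in *hvatr.g* than in WT. The zeocin-treated libraries took no part in choosing the genes, although the earlier results of these libraries were known. All 7 genes passed the filter on low counts. The gene 6HG0543400 passed only through the WT libraries, so it had to differ and is left out of the counts that follow. The other 6 genes were all called lower in *hvatr.g*. Of all tested genes, 5.56% were called lower in this comparison and 3.46% higher. In each of these 6 genes the 3 *hvatr.g* libraries lay below the 3 WT libraries, a pattern that 19.4% of all tested genes showed in this direction. Their median log2 fold change was -1.91, and that of all tested genes was -0.0001. Under mock treatment the *hvatr.g* libraries of all 7 genes also lay below the WT libraries, as the choice of the genes favours, and so did those of 15.6% of all tested genes. The member nearest to the fold threshold of the choice was 3HG0283350, at -1.51. Under zeocin without the libraries numbered 3, the number called lower was 3, namely 6HG0591180, 5HG0528300 and 6HG0543380, and all 7 fold changes stayed negative.

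**Figure D1:**
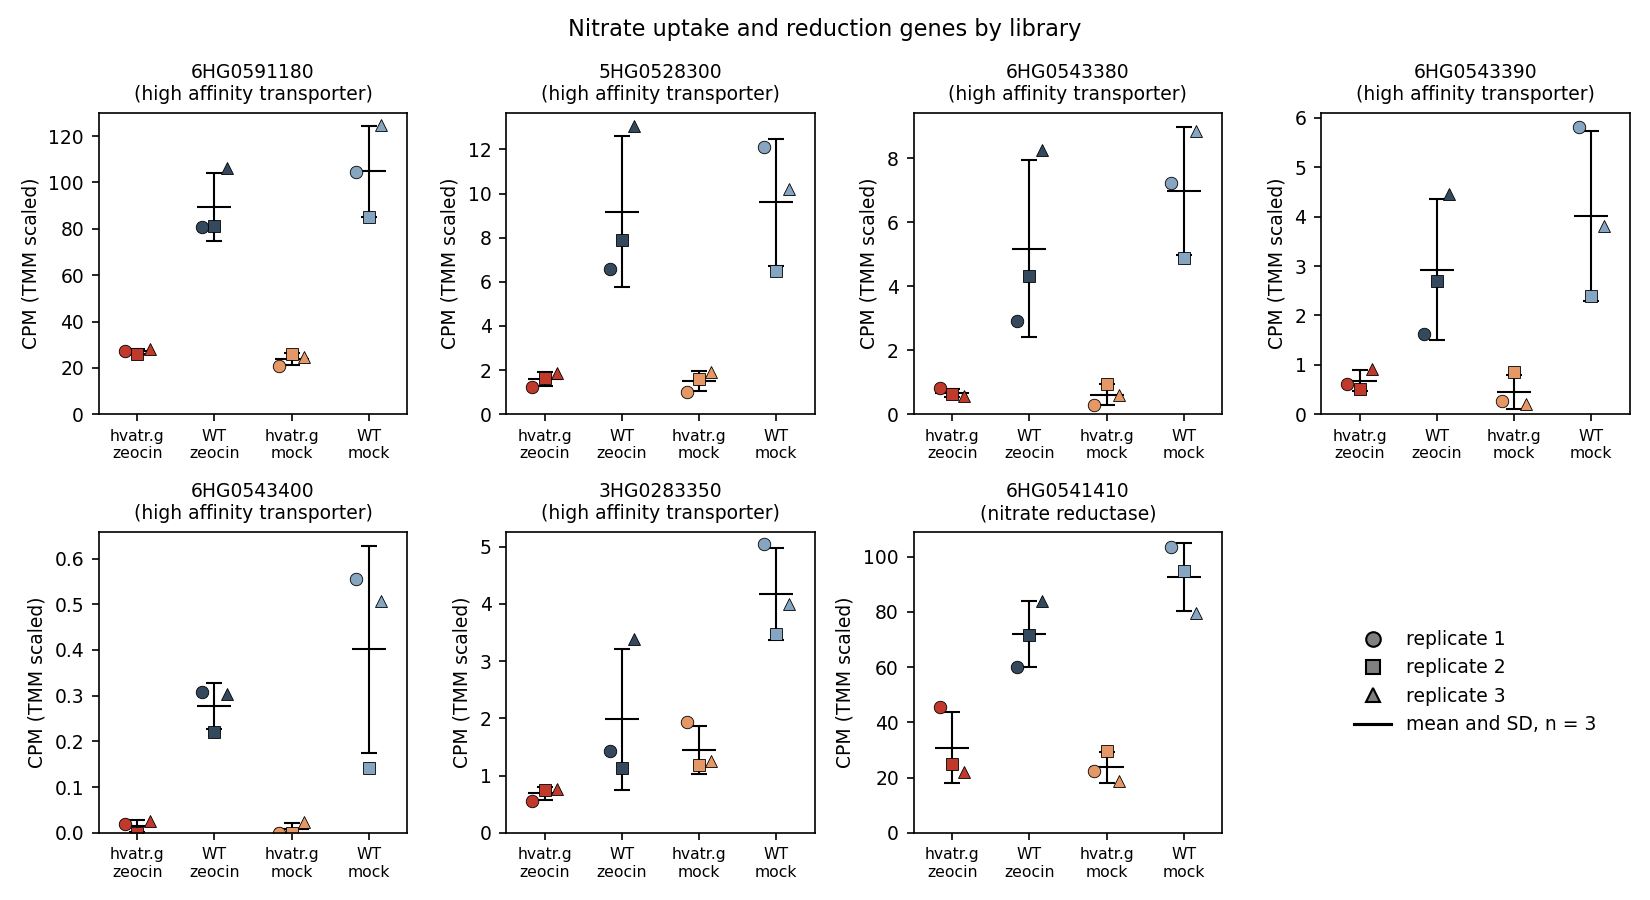
TMM-scaled CPM of the 7 genes (y axes, from 0, 1 panel for each gene) in the 12 libraries, by group (x axis). Symbols mark the replicate number, and bars give the mean and SD of 3 libraries. The *hvatr.g* libraries lie below the WT libraries of the same treatment in every panel, and in 3HG0283350 the mock-treated *hvatr.g* libraries reach into the range of zeocin-treated WT.

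The transporter gene HORVU.MOREX.r3.6HG0591180 (6HG0591180) carried enough counts in every library, at least 1013, for a close estimate. Under zeocin it stood at 27.2, 26.2 and 28.2 CPM in *hvatr.g*, against 80.6, 81.2 and 106 CPM in WT. The *hvatr.g* libraries lay close together and far below the lowest WT library. The log2 fold change was -1.72 (SE 0.16, edgeR adjusted p = 6.92e-05), a 3.28-fold lower level. Under mock treatment it stood at 20.8, 25.9 and 24.9 CPM in *hvatr.g*, against 104, 85.3 and 125 CPM in WT. Again the groups were far apart, and the log2 fold change was -2.14. Across both treatments, the highest of the 6 *hvatr.g* libraries lay 2.86-fold below the lowest of the 6 WT libraries.

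The transporter gene HORVU.MOREX.r3.5HG0528300 (5HG0528300) was low in all 6 *hvatr.g* libraries. Under zeocin it stood at 1.24, 1.66 and 1.87 CPM in *hvatr.g*, against 6.59, 7.88 and 13.0 CPM in WT. WT replicate 3 was the highest library, and the groups did not overlap. The log2 fold change was -2.53 (SE 0.34, edgeR adjusted p = 0.000683). Under mock treatment it stood at 0.995, 1.61 and 1.90 CPM in *hvatr.g*, against 12.1, 6.48 and 10.2 CPM in WT, a log2 fold change of -2.69. The 6 *hvatr.g* libraries all lay below the 6 WT libraries, the nearest pair differing 3.42-fold.

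A run of 3 transporter genes has neighbouring identifiers on chromosome 6H, 6HG0543380, 6HG0543390 and 6HG0543400. The sequences of these genes were not analysed here, and how reads that match several copies were counted is not given in the sources used here, so the counts of single genes in this run are uncertain. For 6HG0543380, zeocin-treated *hvatr.g* libraries had 41, 24 and 22 counts, or 0.807, 0.621 and 0.557 CPM, and zeocin-treated WT libraries had 104, 157 and 326 counts, or 2.92, 4.33 and 8.26 CPM. All 3 WT libraries were higher, replicate 3 most of all. The log2 fold change was -2.95 (SE 0.46, edgeR adjusted p = 0.00156), and under mock treatment it was -3.51. For 6HG0543390, zeocin-treated libraries stood at 0.610, 0.517 and 0.912 CPM in *hvatr.g*, against 1.63, 2.70 and 4.46 CPM in WT. The groups did not overlap, with a log2 fold change of -2.11 (SE 0.53, edgeR adjusted p = 0.0189). Leaving out *hvatr.g* replicate 1, *hvatr.g* replicate 2 or WT replicate 3 ended the call (edgeR adjusted p = 0.0683 to 0.072). Under mock treatment its libraries stood at 0.279, 0.856 and 0.216 CPM in *hvatr.g*, against 5.81, 2.40 and 3.82 CPM in WT. *hvatr.g* replicate 2 held more than the other two mock-treated *hvatr.g* libraries together, and the log2 fold change of -3.14 became -3.99 without it.

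The third gene of the run, 6HG0543400, was at the edge of detection in *hvatr.g*. Under zeocin it had 1, 0 and 1 counts in *hvatr.g*, against 11, 8 and 12 counts in WT. Under mock treatment it had 0, 0 and 1 counts in *hvatr.g*, against 23, 5 and 19 counts in WT. Set against a floor of 3 counts per library, the gene was at least 3.92-fold lower in *hvatr.g* than in WT under zeocin and at least 7.28-fold lower under mock treatment. Of the counts that fell on the run as a whole under zeocin, 6HG0543380 took 56.2%, 54.5% and 37.3% in *hvatr.g*, against 60.1%, 59.7% and 63.4% in WT. 6HG0543390 took 42.5%, 45.5% and 61.0% in *hvatr.g*, against 33.5%, 37.3% and 34.2% in WT. Neither share overlapped between the genotypes under zeocin, with the share of 6HG0543380 lower and that of 6HG0543390 higher in *hvatr.g*. As 6HG0543400 took few of the counts, these shares nearly mirror each other and are not separate results. The nearest libraries lay within counting error of each other, 56.2% in *hvatr.g* replicate 1 (Wilson 95% interval 44.8% to 67.0%) and 59.7% in WT replicate 2 (53.7% to 65.4%) for 6HG0543380. Under mock treatment the shares of both genes overlapped, 6HG0543380 taking 52.3%, 52.5% and 71.4% in *hvatr.g*, against 53.2%, 65.8% and 67.1% in WT. The difference in shares was not tested, and the intervals cover counting error only.

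The transporter gene HORVU.MOREX.r3.3HG0283350, annotated as high-affinity nitrate transporter 2, was also called lower in *hvatr.g* under zeocin, and 1 WT library weighed on the call. Under zeocin it had 28, 29 and 30 counts in *hvatr.g*, against 51, 41 and 134 counts in WT. In CPM this was 0.551, 0.750 and 0.760 in *hvatr.g*, against 1.43, 1.13 and 3.39 in WT. WT replicate 3 stood well above the other two WT libraries. The log2 fold change was -1.54 (SE 0.40, edgeR adjusted p = 0.0218), and without WT replicate 3 it was -0.90 (edgeR adjusted p = 0.0906). Leaving out any one of the 3 *hvatr.g* libraries also lost the call (edgeR adjusted p = 0.0528 to 0.086). The call was lost as well with limma-voom and in a fit of the compared libraries alone. Under mock treatment the gene stood at 1.94, 1.18 and 1.25 CPM in *hvatr.g*, against 5.04, 3.47 and 4.01 CPM in WT, without overlap, and the log2 fold change was -1.51.

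The nitrate reductase gene HORVU.MOREX.r3.6HG0541410 (6HG0541410) was the member with the smallest fold change under zeocin. It stood at 45.7, 24.8 and 22.1 CPM in zeocin-treated *hvatr.g*, against 60.1, 71.6 and 84.0 CPM in zeocin-treated WT. *hvatr.g* replicate 1 was the highest library of its group and came nearest to WT. The log2 fold change was -1.22 (SE 0.26, edgeR adjusted p = 0.00824), a 2.33-fold lower level. Without *hvatr.g* replicate 1 it was -1.62. Under mock treatment the gene stood at 22.4, 29.8 and 18.9 CPM in *hvatr.g*, against 104, 94.8 and 79.5 CPM in WT, far apart, with a log2 fold change of -1.97.

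**Figure D2:**
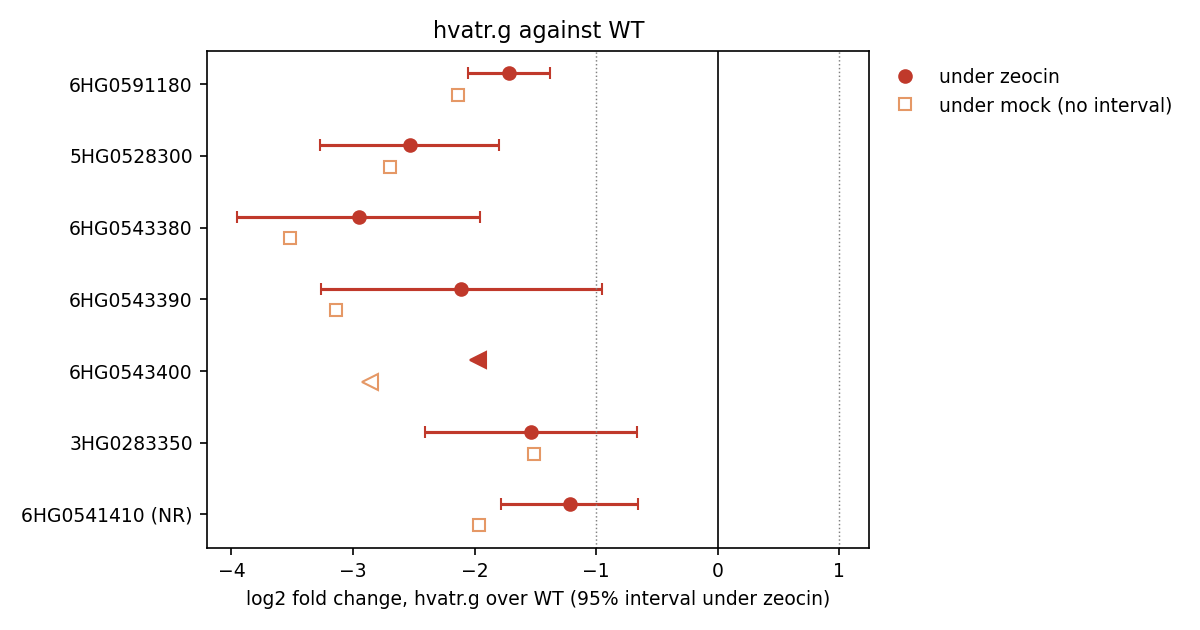
Log2 fold change of *hvatr.g* over WT (x axis) for the 7 genes (y axis) under zeocin (filled circles, bars are the 95% interval from edgeR) and under mock treatment (open squares, without interval because these libraries chose the genes). Arrowheads for 6HG0543400 are bounds computed against 3 counts. All points lie below 0, from -1.22 for nitrate reductase (NR) to -2.95 for 6HG0543380 among the fitted values under zeocin.

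Among the 4 groups, the median spread of the members between libraries was widest in zeocin-treated WT. Leaving out 6HG0543400, the median coefficient of variation over 6 genes was 19.9% in *hvatr.g* and 43.0% in WT under zeocin. Under mock treatment it was 29.8% in *hvatr.g* and 23.9% in WT. In zeocin-treated WT, replicate 3 was the highest library for 6 of the 7 genes and replicate 1 the lowest for 5. In mock-treated WT, replicate 1 was the highest for 5 and replicate 2 the lowest for 6. Within each WT group, then, 1 library was the highest for most members. The choice of the genes favours a small spread in the mock-treated libraries. Neither the spread nor these library counts were computed over all tested genes, and nothing is read from them. Leaving out 6HG0543400, the highest *hvatr.g* library of the 6 lay below the lowest WT library of the 6 in all genes except 3HG0283350. The gap was 1.32-fold for nitrate reductase. These libraries include the mock-treated ones that chose the genes, which favours such a gap, and its share over all tested genes was not computed.

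Zeocin itself changed none of the 7 genes past both thresholds, in *hvatr.g* or in WT. These comparisons use the mock-treated libraries that chose the genes. In *hvatr.g*, 0 of 7 were called by edgeR, by DESeq2 or by limma-voom, and 1 had an unadjusted p under 0.05 in each of the 3 tools. In WT, 0 of 7 were called by the same 3 tools, and 1 had an unadjusted p under 0.05 in each. Of all tested genes, zeocin called 2.15% lower and 1.29% higher in *hvatr.g*, and 0.902% lower and 1.12% higher in WT. Leaving out 6HG0543400, the fitted log2 fold change was above 0 for 5 of 6 genes in *hvatr.g* (median 0.16) and below 0 for all 6 in WT (median -0.40). It was below 0 for 49.8% of all tested genes in *hvatr.g* and 49.2% in WT. Since the genes were chosen as low in mock-treated *hvatr.g* and high in mock-treated WT, the choice favours these signs. Nothing is read from them.

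The gene with the unadjusted p under 0.05 was 3HG0283350 in both genotypes. In *hvatr.g* its 3 zeocin-treated libraries lay below the 3 mock-treated ones, with a log2 fold change of -1.09 (95% interval -1.96 to -0.23, edgeR adjusted p = 0.163). In WT they also lay below, with a log2 fold change of -1.07 (95% interval -1.88 to -0.26, edgeR adjusted p = 0.207). Without zeocin-treated WT replicate 3 the log2 fold change in WT was -1.70 and the gene was called (edgeR adjusted p = 0.00984). It was the only member whose zeocin-treated libraries lay fully below the mock-treated ones in either genotype, a pattern shown by 14.1% of all tested genes in *hvatr.g* and 7.58% in WT. From low to high, its group means ran in the order zeocin-treated *hvatr.g*, mock-treated *hvatr.g*, zeocin-treated WT and mock-treated WT, and of the neighbours in this order only mock-treated *hvatr.g* and zeocin-treated WT overlapped.

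In the other 6 genes the order from low to high was mock-treated *hvatr.g*, zeocin-treated *hvatr.g*, zeocin-treated WT and mock-treated WT. The choice by the mock-treated libraries favours an order with the mock groups at both ends, and nothing is read from it. The 2 *hvatr.g* groups overlapped in each of them except 6HG0591180, and the 2 WT groups overlapped in each. For 6HG0591180 the 3 zeocin-treated *hvatr.g* libraries all lay above the mock-treated ones, by a log2 fold change of 0.19 (95% interval -0.14 to 0.52, edgeR adjusted p = 0.685), and 12% of all tested genes had libraries apart in this way. In WT its log2 fold change with zeocin was -0.23 (95% interval -0.56 to 0.10, edgeR adjusted p = 0.664). For nitrate reductase the log2 fold change with zeocin was 0.38 in *hvatr.g* (95% interval -0.18 to 0.94, edgeR adjusted p = 0.577) and -0.37 in WT (95% interval -0.92 to 0.19, edgeR adjusted p = 0.689). For these 2 genes the intervals bound a zeocin response of either sign to less than 1 on the log2 scale, whereas for 6HG0543390 in *hvatr.g* the interval ran from -0.63 to 1.79.

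**Figure D3:**
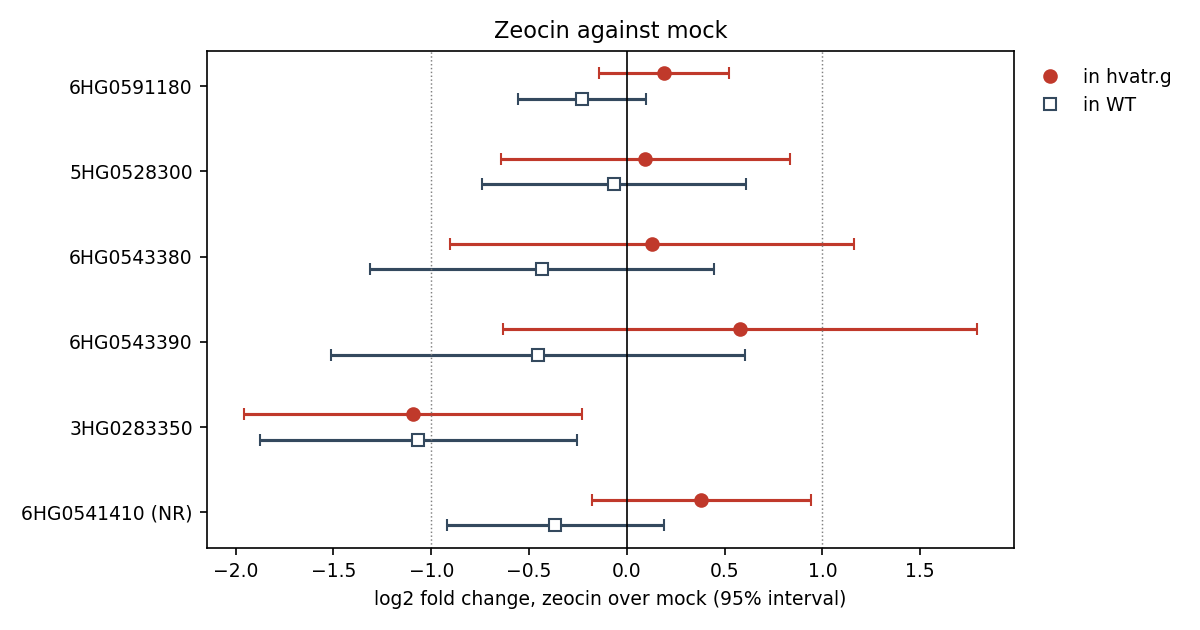
Log2 fold change of zeocin over mock (x axis, bars are the 95% interval from edgeR) for 6 of the genes (y axis) in *hvatr.g* (filled circles) and WT (open squares). The gene 6HG0543400 is left out because its *hvatr.g* libraries held at most 1 count. Both intervals of 3HG0283350 lie below 0, and those of the other 5 genes include 0.

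Whether the zeocin response differed between the genotypes was asked with the interaction term. The term subtracts the mock difference that chose the genes, so the choice itself favours a positive sign, and nothing is read from the sign. It was 0.42 for 6HG0591180 (95% interval -0.05 to 0.89) and 0.75 for nitrate reductase (95% interval -0.04 to 1.53). No member reached an adjusted p under 0.05 by edgeR, DESeq2 or limma-voom, and an unadjusted p under 0.05 was reached by 0 members in edgeR, 1 in DESeq2 and 0 in limma-voom. Across all tested genes edgeR gave 0 interactions at an adjusted p under 0.05 and 1120 at an unadjusted p under 0.05, while DESeq2 gave 112 and limma-voom 1 at an adjusted p under 0.05. A difference between the genotypes in the zeocin response of these genes was thus not detected.

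Other genes of nitrate transport and reduction were followed as a list of 13, which the study chose on these libraries and which is not independent evidence of a direction. Of them, 10 had enough counts to test. Under zeocin 5 were called lower in *hvatr.g* than in WT and 0 higher, with a median log2 fold change of -1.18. Of all tested genes, 5.56% were called lower and 3.46% higher. The 5 include 3HG0298810, which passed the filter on low counts only through the WT libraries, so the filter favoured its call. Leaving out zeocin-treated *hvatr.g* replicate 3 gave 3 calls, and leaving out the libraries numbered 3 gave 4. The single gene annotated as nitrite reductase, 6HG0619730, stood at 357, 275 and 285 CPM in *hvatr.g*, against 682, 593 and 890 CPM in WT. The groups were well apart, with a log2 fold change of -1.24 (SE 0.17, edgeR adjusted p = 0.000917), and under mock treatment it was -1.45. A gene that carries the term nitrate assimilation without a description, 3HG0273810, had a log2 fold change of -0.76 (edgeR adjusted p = 0.00231), short of the fold threshold.

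The genes annotated as nitrate transporter NRT1.1, a dual affinity transporter and nitrate sensor in Arabidopsis, were 1HG0056390, 1HG0056410 and 4HG0415780. Under zeocin 1HG0056390 averaged 86.4 ± 14.6 CPM in *hvatr.g* and 213 ± 44.5 CPM in WT, and its libraries did not overlap, but the log2 fold change of -1.31 was not called (edgeR adjusted p = 0.0546). It lay close to the threshold and was called with DESeq2 (adjusted p = 0.011), with no filter on low counts (0.0159), in the 6 compared libraries alone (0.00475), with the replicate block (0.0449) and without the libraries numbered 3 (0.00616). It was not called when any single compared library was left out (edgeR adjusted p = 0.058 to 0.16). Its neighbour 1HG0056410 had a log2 fold change of -0.55 (edgeR adjusted p = 0.107). The NRT1.1 gene 4HG0415780, which the study listed for its fall with zeocin in *hvatr.g*, stood at 12.8, 13.7 and 8.46 CPM in zeocin-treated *hvatr.g*, against 25.5, 23.8 and 26.2 CPM in zeocin-treated WT. Its log2 fold change between the genotypes was -1.11 under zeocin and -0.50 under mock treatment, a description since the choice used the *hvatr.g* libraries. It is 1 of the 5 genes called lower, and without zeocin-treated *hvatr.g* replicate 3 its log2 fold change of -0.93 was short of the threshold.

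The NRT1/PTR family held both directions. Of the 3 tested genes of the subgroup annotated 5.5, 2 were called lower under zeocin, 5HG0527310 with a log2 fold change of -2.33 (SE 0.27, edgeR adjusted p = 0.000306) and 3HG0298810 with -1.93 (SE 0.48, edgeR adjusted p = 0.0179). The gene 3HG0298810 held 1 to 12 counts per library in *hvatr.g* and 17 to 40 in WT. It passed the filter on low counts only through the WT libraries, so the filter favoured its call. The call of 3HG0298810 was lost in 5 of the 6 fits that left out 1 compared library (edgeR adjusted p = 0.0533 to 0.0708) and held only without WT replicate 3 (0.00894). The third, 5HG0527270, had a log2 fold change of -0.09 (95% interval -0.80 to 0.62). Both genes annotated NRT1/PTR 1.1 lie close in identifier on chromosome 1H and had fitted values of opposite sign. The gene 1HG0064960, at 6 to 37 counts per library, had a log2 fold change of -1.90 (edgeR adjusted p = 0.0106, and 0.0727 without the libraries numbered 3), and 1HG0064910 had 0.77 (95% interval 0.19 to 1.35, edgeR adjusted p = 0.0691), not called, with overlapping libraries. Of the genes with too few counts to test, a further high affinity transporter, 6HG0543580, had 6 counts in total over the 12 libraries, none of them in *hvatr.g*.

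**Figure D4:**
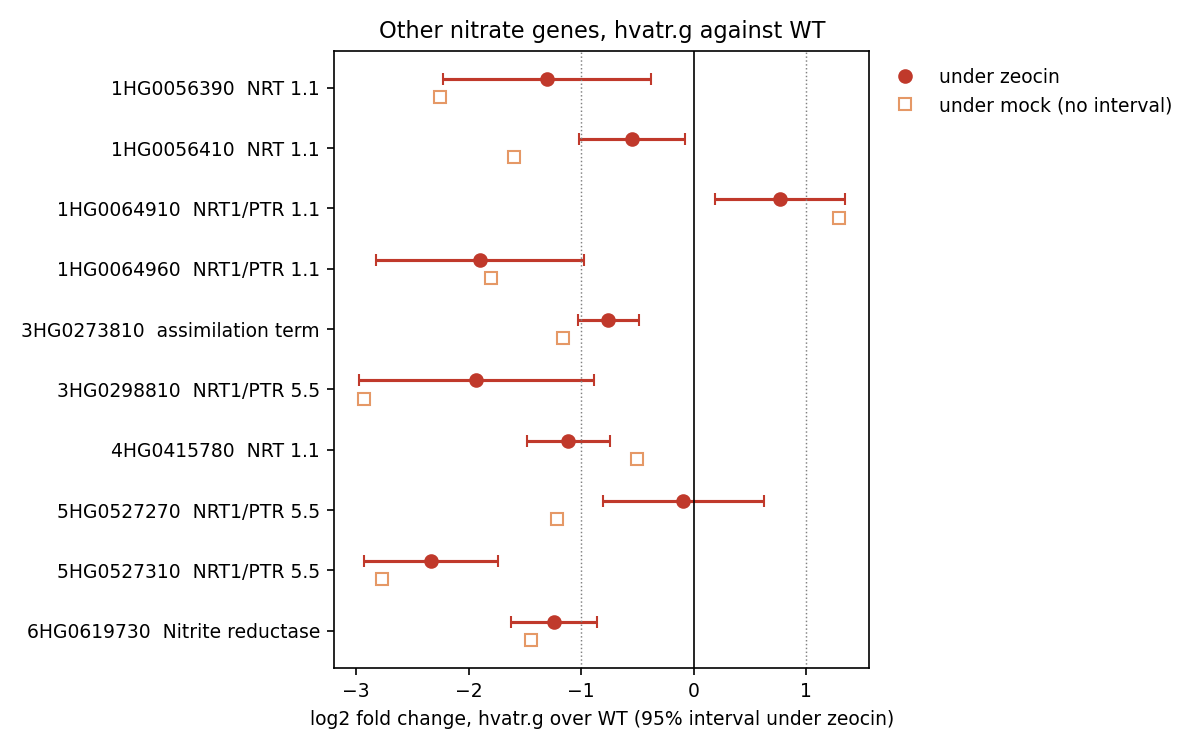
Log2 fold change of *hvatr.g* over WT (x axis) for the 10 tested genes of the list of other nitrate genes (y axis, with their annotation, NRT for nitrate transporter) under zeocin (filled circles, bars are the 95% interval from edgeR) and under mock treatment (open squares, without interval because these libraries chose most of the genes). Only 1HG0064910 lies above 0.

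The run on chromosome 6H was set against the genes around it. Within 100 identifier numbers of the 4 high affinity transporter identifiers there, the table holds 42 rows, of which 39 are not among the 7 genes. Of these 39, 10 had a count of 0 in every library and 17 could be tested. Under zeocin 1 of the 17 was called lower in *hvatr.g*, 6HG0543540 (log2 fold change -1.25, edgeR adjusted p = 0.00531), and 1 higher, 6HG0543280 (log2 fold change 1.38, edgeR adjusted p = 0.004). Of all tested genes, 5.56% were called lower and 3.46% higher, and nothing is read from these counts. The genes of the run were themselves chosen as lower in *hvatr.g*, so setting them beside their neighbours is a description. The tested genes that flank the run on either side, 6HG0543370 and 6HG0543450, were not called, with log2 fold changes of 0.56 and -0.61.

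**Figure D5:**
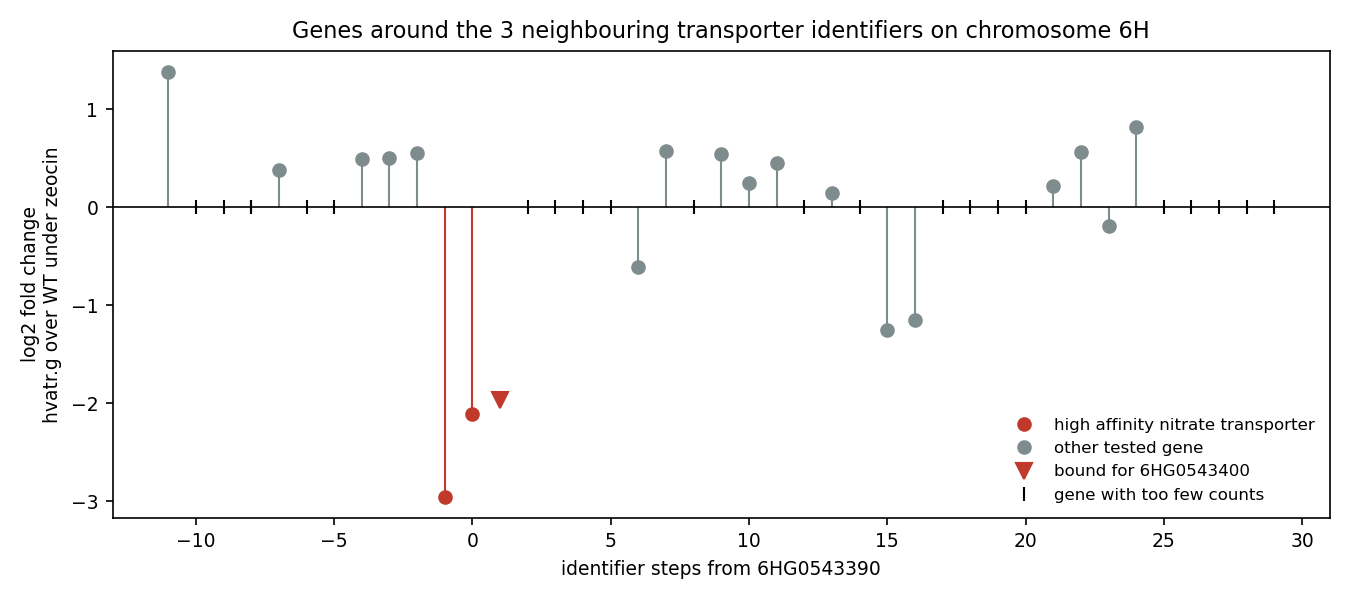
Log2 fold change of *hvatr.g* over WT under zeocin (y axis) for genes in identifier order around 6HG0543390 on chromosome 6H (x axis, steps of 10 in the identifier number). Red marks the 3 transporter genes, with a bound for 6HG0543400, grey the 17 other tested genes and ticks the genes with too few counts. The 17 other genes lie between -1.25 and 1.38, and the 3 transporter genes lie below all of them.

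Genes with the most similar pattern were sought for the 2 members with the most counts, as the smallest root mean square difference of centred log2 CPM over the 12 libraries. For 6HG0591180 these were 4HG0334610 (0.16), 7HG0675930 (0.19) and 2HG0203070 (0.20). For nitrate reductase they were 2HG0187050 (0.24), 3HG0254840 (0.25) and 3HG0221180 (0.27). None of the 6 has a description in the sources used here. Among the members themselves, the pattern of nitrate reductase was nearest to that of 6HG0591180 (0.36) and that of 3HG0283350 was the farthest from 6HG0543380 (1.13).

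Markers of other cell states were summed as lists. Expansin and green tissue sums differed between the genotypes under both treatments, and histone sums under zeocin only. The list of 11 expansin genes, which act on the walls of elongating cells and which the study chose on these libraries, summed to 42.6 to 119 CPM in zeocin-treated *hvatr.g* and 466 to 481 CPM in zeocin-treated WT, and to 97.2 to 120 CPM in mock-treated *hvatr.g* and 413 to 683 CPM in mock-treated WT. Of its 10 tested genes 7 were called lower in *hvatr.g* under zeocin and 0 higher, beside 5.56% lower and 3.46% higher of all tested genes. None of the 11 was at 0 in all 12 libraries. The list of 132 histone genes, whose transcripts mark dividing cells, was also chosen by the study on these libraries. The study reported histone genes as lower with zeocin, so their fall with zeocin is a description. The list summed to 3911 to 5085 CPM in zeocin-treated *hvatr.g* and 6413 to 8578 CPM in zeocin-treated WT, and to 12529 to 12911 CPM in mock-treated *hvatr.g* and 11392 to 16756 CPM in mock-treated WT. The expansin sums did not overlap between the genotypes under either treatment, and the histone sums overlapped under mock treatment. The part of elongating cells in the nitrate results was not tested. The 5 green tissue genes, also chosen by the study, summed to 0.0517 to 0.177 CPM in zeocin-treated *hvatr.g* and 0.280 to 2.36 CPM in zeocin-treated WT, and to 0.0265 to 0.216 CPM in mock-treated *hvatr.g* and 0.458 to 1.24 CPM in mock-treated WT. These low sums moved with the genotype and did not overlap under either treatment. The 1 gene that passed the filter, 7HG0668480, annotated as a chlorophyll a-b binding protein, had 0, 0 and 1 counts in zeocin-treated *hvatr.g*, against 3, 7 and 16 counts in zeocin-treated WT. This gene passed only through the WT libraries, so the filter favoured a lower level in *hvatr.g*. The WT sums reach the CPM of the least abundant members, and the part of green tissue in the nitrate results was not tested.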

How the data were processed

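Poly(A) RNA of 12 libraries was analysed. The authors trimmed the read pairs, mapped them with HISAT2 (2.1.0) to the third Morex genome and deposited raw counts per transcript model made with Subread (1.5.2). Strand, read pair and multi-mapping settings are not given in the sources used here. The members and lists were chosen with earlier results of these data known, and gene descriptions came from the study's supplement. Named were the 7 members, the nitrate transporter NRT1.1, NRT1/PTR and reductase genes of the nitrate list, genes beside the chromosome 6H run and the 3 genes most like the members with the most counts.

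Counts were filtered with filterByExpr, scaled by TMM and fitted with edgeR 4.0.16 in R 4.3.3 (glmQLFit, glmQLFTest) over all 12 libraries with the 4 groups as terms. The interaction had no fold change threshold. The test was checked on simulated data. SE was derived from the fold change and its F statistic. Log2 CPM used a prior count of 2. Alternatives used limma 3.58.1 and DESeq2 1.42.0. Figures were drawn with matplotlib 3.10.9. Replicate numbers were checked for pairing by correlating the deviations of same-numbered libraries. In WT, zeocin against mock, the correlations were 0.31, 0.38 and 0.54, so the numbers paired the libraries there. In *hvatr.g* they were 0.18, 0.03 and 0.17. Between the genotypes they were 0.06, -0.05 and 0.10 under zeocin and 0.27, -0.02 and 0.27 under mock treatment.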

Additional observations from a re-analysis of the deposited data

How the results depend on the processing

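The 7 calls between the genotypes under zeocin, 6HG0543400 counted here, numbered 7 with RLE scaling, library size only, no filter on low counts, DESeq2 and the replicate block over the 4 groups. They numbered 6 with limma-voom and 5 in a fit of the 6 compared libraries alone. The gene 3HG0283350 lost its call in both of these. In the fit of the compared libraries alone, 6HG0543400 had too few counts to test. Leaving out 1 library in turn gave 5 to 7 calls. Without the libraries numbered 3, a choice made after seeing the data, the number was 3. The genes that lost the call were 6HG0543390 (edgeR adjusted p = 0.0755), 6HG0543400 (0.0725), 3HG0283350 (0.137) and nitrate reductase (0.0585), in a design of 2 libraries per group, and the cause was not tested. Over the other alternatives the adjusted p of 3HG0283350 ran from 0.00216 to 0.0906 and that of 6HG0543390 from 0.000805 to 0.072. No log2 fold change between the genotypes changed sign in any alternative. Zeocin in WT gave 0 calls among the 7 genes, and 0 to 1 when 1 library was left out, the 1 being 3HG0283350 without zeocin-treated WT replicate 3, and 1 without the libraries numbered 3. With the replicate block within each genotype, added after seeing the data, the number of calls stayed at 0 for zeocin in WT and for zeocin in *hvatr.g*, and the block changed no other call among the 7 genes. Across all genes, interactions at an adjusted p under 0.05 numbered 0 with edgeR, 33 with no filter on low counts, 112 with DESeq2 and 1 with limma-voom. Over all genes, the number called between the genotypes under zeocin was 2349, and 1543 without zeocin-treated *hvatr.g* replicate 3, and that for zeocin in WT was 527, and 331 without zeocin-treated WT replicate 1. Under mock treatment the log2 fold change of 6HG0543400 depended most on the setting, from -7.17 to -4.83. Depth limits the run on chromosome 6H, where the *hvatr.g* libraries held at most 101 counts.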

Other observations

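The study's list of other nitrogen carriers moved in both directions. Of 17 genes 16 could be tested, and under zeocin 6 were called lower in *hvatr.g* than in WT and 4 higher. The 4 include the peptide transporter gene 2HG0194350. It passed the filter on low counts only through the *hvatr.g* libraries, so the filter favoured its call. Of all tested genes, 5.56% were called lower and 3.46% higher. Among those lower, the ammonium transporter gene 6HG0595580 averaged 164 ± 1.40 CPM in *hvatr.g* and 349 ± 84.0 CPM in WT (log2 fold change -1.09, edgeR adjusted p = 0.00128), and the amino acid permease gene 3HG0234440 averaged 23.0 ± 2.38 CPM in *hvatr.g* and 53.3 ± 2.99 CPM in WT (log2 fold change -1.21, edgeR adjusted p = 9.6e-05). Among those higher, the peptide transporter gene 6HG0606430 averaged 3.45 ± 1.09 CPM in *hvatr.g* and 0.597 ± 0.375 CPM in WT (log2 fold change 2.53, edgeR adjusted p = 0.00472), and the cationic amino acid transporter gene 5HG0489610 averaged 10.6 ± 1.45 CPM in *hvatr.g* and 4.86 ± 1.23 CPM in WT (log2 fold change 1.13, edgeR adjusted p = 0.00933). As the study drew this list from the same libraries, its counts are not independent evidence.

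The NRT1.1 gene 1HG0056390 had 1 library that stood apart. In mock-treated *hvatr.g* it stood at 76.8, 64.3 and 14.5 CPM, from 5787, 3604 and 602 counts, against 252, 255 and 238 CPM in mock-treated WT. In the same library, *hvatr.g* replicate 3, its neighbour 1HG0056410 was at 31.8 CPM, beside 36.8 and 52.2 CPM in the other two.

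Past the run on chromosome 6H, the adjacent identifiers 6HG0543540 and 6HG0543550, which have no description in the sources used here, were both lower in *hvatr.g* under zeocin by fitted value, -1.25 (edgeR adjusted p = 0.00531) and -1.15 (edgeR adjusted p = 0.0589), and only the first was called. Under mock treatment both were called lower, at -1.56 (edgeR adjusted p = 0.00134) and -1.44 (edgeR adjusted p = 0.024). They were the 2 called lower among the 17 tested neighbours of the run, and 1 was called higher, 6HG0543630 (1.17, edgeR adjusted p = 0.0096). Of all 26039 tested genes, 2199 were called in either direction under mock treatment, and nothing is read from these calls.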
